A study of Mus musculus with 4 samples.

Results

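The genes described here are 54 genes of DNA replication and mitosis, a list of names that holds licensing and helicase genes, DNA polymerase and replication fork genes, enzymes of deoxynucleotide supply, cyclins and kinases, checkpoint genes, kinetochore and spindle genes and 1 subunit of the DREAM complex, Lin52. Each was read through the probe sets annotated with its symbol alone, and the probe set with the highest mean over the 4 arrays stood for the gene. Of the 54 genes, 53 were measured in this way, of 18193 genes on the array, and Ccnb1, the cyclin B1 gene, was not analysed here. By the phase in which their products are known to act, 24 of the measured genes were taken as S-phase genes and 28 as G2/M genes, and Lin52 as neither.

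RNA came from Deaf-1-null mammary epithelial cells that had been immortalised and cloned. The 2 clones, C1 and E1, were given either a retrovirus encoding Deaf-1 or the empty retrovirus and selected in puromycin for 48 h. All 4 cultures therefore lacked the endogenous Deaf-1 gene product and carried the HPV16 E6/E7 proteins used for immortalisation, and both controls differed from the Deaf-1 cells in the retrovirus only. The cells came from mammary glands of young adult female Deaf-1-/- mice, given as 1 mouse in one place and as mice in another. Each clone and retrovirus was hybridised to 1 array, so a clone had 2 arrays that differed in the retrovirus, a retrovirus had 2 arrays that differed in the clone, and a difference between the clones was a difference between these particular clones.

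Replication genes are transcribed from late G1 under E2F transcription factors, which the retinoblastoma family holds in check until cyclin-dependent kinases phosphorylate it. Genes of mitosis peak later, in G2 and M, when MYB-MuvB and FOXM1 act on promoters that the DREAM complex represses in quiescent cells, largely through a promoter word called the cell cycle genes homology region (CHR) and nearby CCAAT boxes, the sites of NF-Y. The HPV16 E7 protein inactivates retinoblastoma family proteins and E6 promotes the degradation of p53. In the mammary gland, transcripts of these genes mark cycling cells, and in a culture their level reads the share of cells in a phase and the RNA per cell together, which cannot be told apart here.

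Values are deposited log2 signals made by RMA, so a difference of 1 is a doubling of signal. Array medians lay between 3.77 and 3.87, and the background level, the 95th percentile of 44 olfactory receptor probe sets, was 3.83. The 2 arrays of a clone correlated at 0.994 (C1) and 0.992 (E1) across probe sets, and arrays of different clones at 0.976 to 0.983. Signal of the Deaf1 probe set was 5.01 with the empty virus and 6.73 with the Deaf-1 virus in C1, and 4.91 and 6.25 in E1. It was 1.53 ± 0.21 (SE) higher with the Deaf-1 virus (limma, unadjusted p = 0.0012), and without either control array the p was 0.011 or 0.0135, above the threshold of 0.01 used for this comparison. The position of this probe set relative to the deleted sequence was not determined. Of 14 mammary epithelial markers 5 were above background, and Krt8, Krt18, Krt14 and Cdh1 had means below it, whereas all 11 measured mesenchymal markers were above it and Col1a1, Col3a1 and Vim reached 12.1 to 13.6 on every array. Epcam, at 5.81 to 6.33, was the brightest epithelial marker, so the defining markers of the labelled cell type were dim or not above background in both clones. The 3' minus 5' difference of the Actb control probe sets was 0.45 to 0.52 on all arrays. Summed over the mesenchymal markers, linear signal was 43000 to 43900 in C1 and 49900 to 52400 in E1, with Vim, Pdgfrb and Postn higher and Lum lower in E1. Summed signal of the epithelial markers was 251 to 281 in C1 and 245 to 303 in E1. Endothelial markers summed to 136 to 170 in C1 and 205 to 208 in E1, leukocyte markers to 64.6 to 66.6 and 59.8 to 75.5, and the adipocyte markers to 25.8 to 32.5 and 1530 to 1560, the last through Fabp4 alone. The part of these differences in the results below was not tested.

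The clones differed in their mitosis genes. Of the 28 G2/M genes, 27 gave a higher mean signal in E1 than in C1, and 12 of them passed an adjusted p under 0.05 (limma, Benjamini-Hochberg over 45037 probe sets), all higher in E1. The median difference was 0.65 over the G2/M genes, a 1.57-fold difference, beside -0.02 over the 11730 genes above background. Of those 11730 genes 5.10% were called higher in E1, and over all probe sets 2.48% were called higher and 2.64% lower. The S-phase genes were divided, with 11 of 24 higher in E1 by mean, 2 past the test and a median of -0.04. In the plot of all members by array, nearly the whole lower block changes colour between the C1 and E1 columns and the upper block is mixed.

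**Figure D1:**
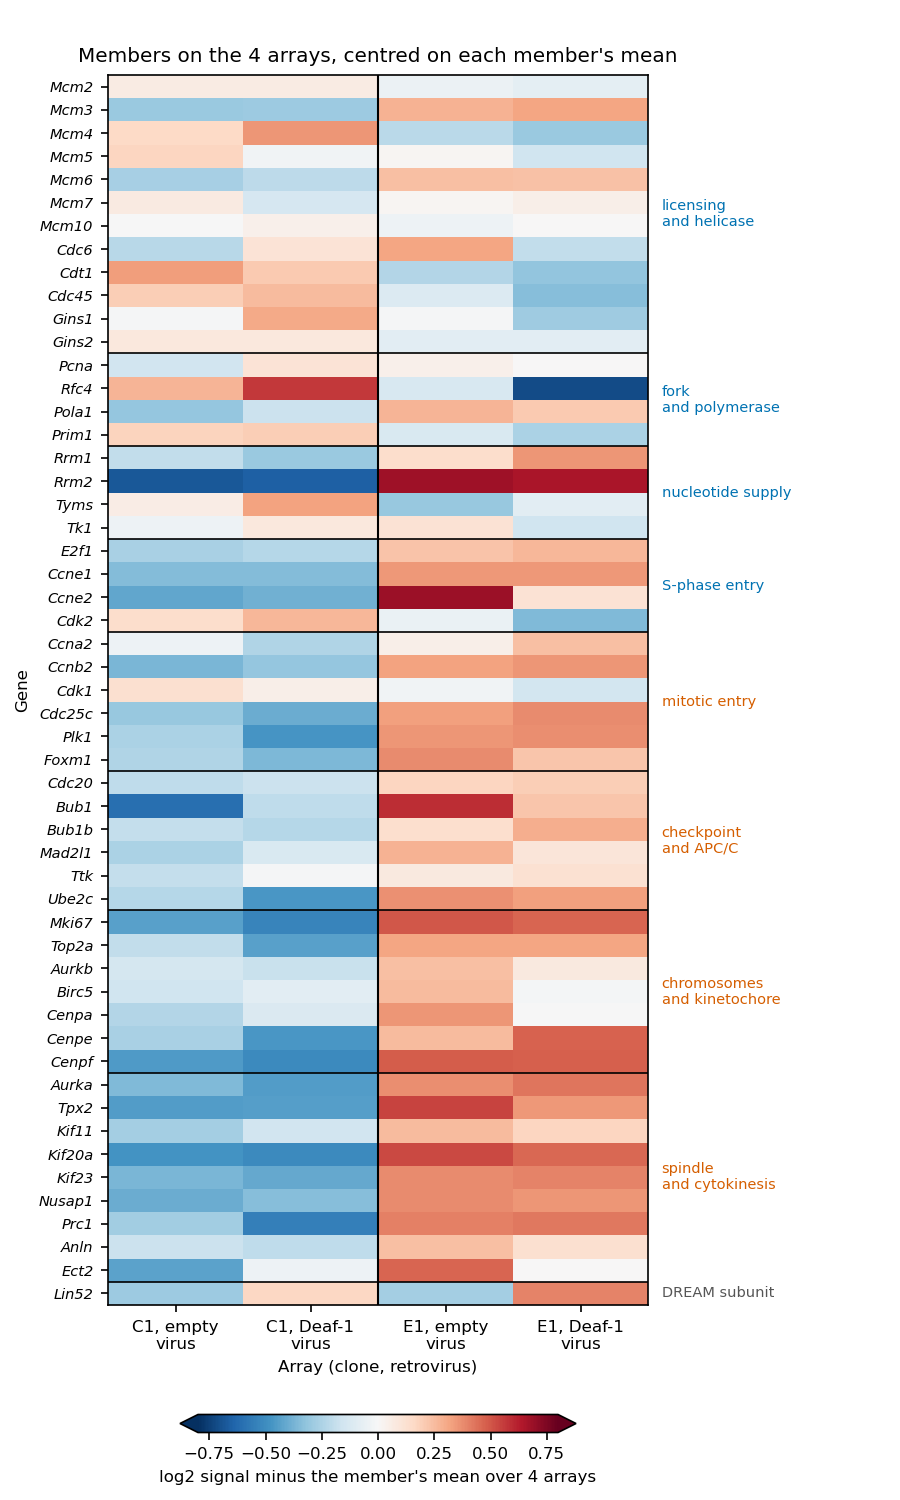
Log2 signal of the 53 measured members (rows, grouped by role; blue role names are S phase, orange G2/M) on the 4 arrays (columns), each row centred on its own mean. The 28 G2/M rows are lower in both C1 columns than in both E1 columns except Cdk1, and the 24 S-phase rows are mixed.

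Both E1 arrays lay above both C1 arrays for 27 of the 28 G2/M genes, and the remaining one, Cdk1, lay below. Among genes above background, both E1 arrays lay above both C1 arrays for 28.6% and below for 33.4%. Of the S-phase genes 8 lay above, 10 below and 6 overlapped. With the empty virus the median difference of the G2/M genes was 0.60 and with the Deaf-1 virus 0.62, each from 1 array per clone. The S-phase medians were -0.02 and -0.14.

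**Figure D2:**
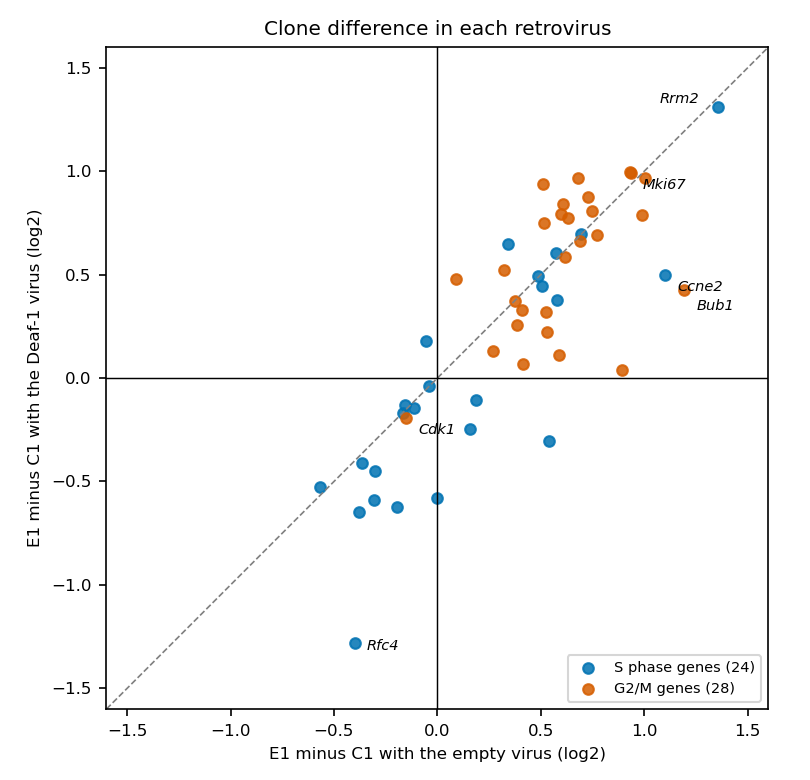
Log2 difference E1 minus C1 of each S-phase gene (blue, 24) and G2/M gene (orange, 28), with the empty virus on the x axis and with the Deaf-1 virus on the y axis; the dashed line marks equal differences. The G2/M genes lie in the upper right quadrant except Cdk1, and the S-phase genes spread on both sides of 0, with Rrm2 highest on both axes and Cdc6 (0.54 and -0.30) and Rfc4 (-0.40 and -1.28) among those far from the line.

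The genes of the spindle and cytokinesis held the most calls, with 6 of 9 higher in E1 and a median difference of 0.78. Kif20a, a kinesin of the central spindle, gave 7.68 and 7.65 on the C1 arrays with the empty and the Deaf-1 virus and 8.69 and 8.61 on the E1 arrays. The E1 arrays were close to each other and both above the C1 arrays, with a difference of 0.99 ± 0.12 (SE, 2 arrays per clone; adjusted p = 0.016). Tpx2, which targets Aurora A to spindle microtubules, differed by 0.89, and Aurka, Aurora A itself, by 0.80 (adjusted p 0.025 and 0.027). A dimmer probe set of Tpx2, with a mean of 6.80, differed by only 0.12 (adjusted p = 0.67), so its call depended on the probe set. Prc1, which bundles the midzone microtubules, Kif23, the centralspindlin kinesin, and Nusap1, a microtubule-binding protein, differed by 0.82, 0.78 and 0.73. Second probe sets of Prc1 and Kif23, with means of 8.21 and 5.36, were higher in E1 by 0.59 and 1.12. Neither of them passed (adjusted p 0.084 and 0.093). Kif11, the motor that separates the spindle poles, and Ect2, the RhoA activator of cytokinesis, did not pass, at 0.42 (adjusted p = 0.14) and 0.47 (adjusted p = 0.31). The other probe sets of Kif11 gave -0.02 and 0.26. Anln, the anillin scaffold of the contractile ring, had the smallest difference of the group, 0.37 ± 0.12 (adjusted p = 0.17), from 9.07 and 9.04 in C1 to 9.48 and 9.37 in E1. A dimmer probe set of Anln, with a mean of 5.25, was 0.68 lower in E1 (adjusted p = 0.037), so the gene's direction depended on the probe set.

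Of the 7 genes of chromosomes and the kinetochore all had both E1 arrays above both C1 arrays, and 2 passed. Mki67, which coats mitotic chromosomes and is the Ki67 proliferation antigen, gave 7.96 and 7.86 in C1 and 8.89 and 8.86 in E1. Neither pair overlapped the other, and the difference was 0.96 ± 0.12, or 1.95-fold (adjusted p = 0.017). Cenpf, a large kinetochore protein of G2 and M, gave 6.82 and 6.76 in C1 and 7.76 and 7.75 in E1, a difference of 0.96 ± 0.12 (adjusted p = 0.017). A dimmer probe set of Cenpf, with a mean of 4.16, gave 0.78 and did not pass (adjusted p = 0.097). Cenpe, the kinetochore kinesin, and Top2a, the topoisomerase that decatenates sister chromatids, came near the threshold with 0.72 (adjusted p = 0.054) and 0.63 (adjusted p = 0.063). A dimmer probe set of Top2a, with a mean of 4.10, gave -0.45 (adjusted p = 0.28). Cenpa, the centromeric histone H3, and Aurkb, the kinase of the chromosomal passenger complex, had differences of 0.35 and 0.32. Birc5, survivin of the same complex, had the smallest, 0.24 ± 0.14 (adjusted p = 0.44), with 8.12 and 8.20 in C1 and 8.54 and 8.27 in E1.

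Mitotic entry held 3 calls of 6 genes and the only G2/M gene with a lower mean in E1. Plk1, Polo-like kinase, gave 7.75 and 7.52 in C1 and 8.35 and 8.37 in E1, a difference of 0.72 ± 0.14 (adjusted p = 0.043). Cdc25c, the phosphatase that activates CDK1, and Ccnb2, cyclin B2, were higher by 0.70 and 0.67 (adjusted p 0.036 and 0.038). Foxm1, the transcription factor of G2/M genes, had 0.60 (adjusted p = 0.064), and 1 of its 3 probe sets above background gave -0.01. Ccna2, cyclin A2, which acts in S phase as well, had 0.28. Cdk1, the mitotic kinase, gave 10.04 and 9.96 in C1 and 9.89 and 9.77 in E1, a difference of -0.17 ± 0.13 (adjusted p = 0.55).

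In the checkpoint and APC/C group 1 of 6 genes passed, Ube2c, the ubiquitin-conjugating enzyme of the anaphase-promoting complex, at 0.69 with an adjusted p of 0.0498. Bub1, a spindle checkpoint kinase, had the largest difference of the group but the arrays of a clone were far apart: 6.65 and 7.05 in C1 and 7.84 and 7.48 in E1, or 0.81 ± 0.20 (adjusted p = 0.084). Bub1b, the BubR1 checkpoint protein, Mad2l1, which inhibits CDC20, and Cdc20, the APC/C activator, had 0.42, 0.38 and 0.37. Ttk, the Mps1 kinase, had the smallest, 0.20 ± 0.13, with 6.55 and 6.73 in C1 and 6.82 and 6.86 in E1.

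The plot of the clone differences with their standard errors orders the members within each phase. With retrovirus as a block in the fit, 0.109% of probe sets were called on the whole array and none of the members, and 18 of the 28 G2/M genes were higher in E1 at an unadjusted p under 0.05, as were 11.5% of genes above background. Leaving out any 1 array also left no probe set called, with 15 to 22 G2/M genes higher in E1 at an unadjusted p under 0.05, as were 9.59% to 13.4% of genes above background. Taking the mean of all probe sets of a gene, those below background included, lowered the median of the G2/M genes to 0.39. Of the 41 further probe sets of members above background, 34 had the same sign between the clones as the brightest.

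**Figure D3:**
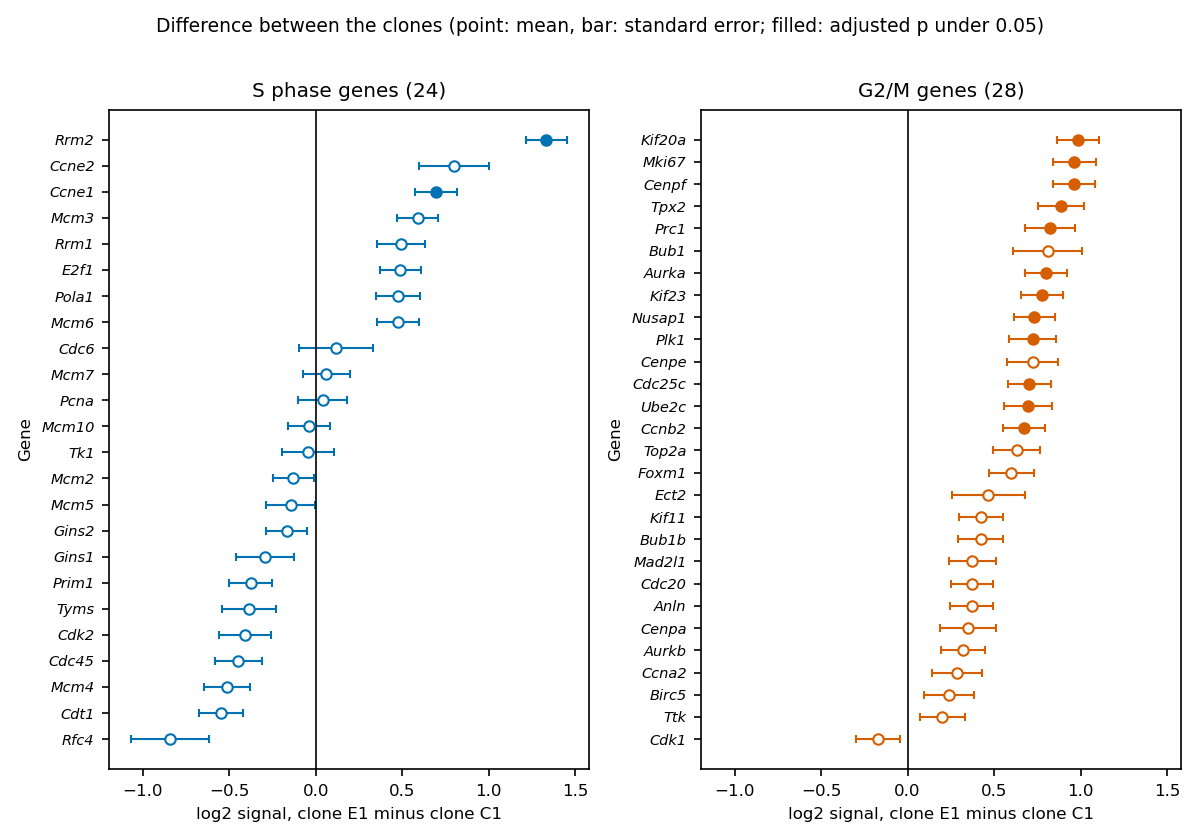
Log2 signal difference E1 minus C1 for the 24 S-phase genes (left) and the 28 G2/M genes (right), in order of size; points are differences of the means of 2 arrays, bars are limma standard errors, filled points passed an adjusted p under 0.05. The filled points are 2 S-phase genes and 12 G2/M genes, and all lie to the right of 0.

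Promoters of 4 called G2/M genes are shown because they hold the CHR, the word by which mitosis genes are commonly recognised. Those shown come from the 4 genes with the highest limma t between the clones among G2/M genes found to hold it. They are RefSeq sequences on GRCm38.p6, from 250 bases before the annotated start to 50 after it, read in the direction of the gene: Cenpf at chr1:189688037-189688336 (minus strand), Mki67 at chr7:135716330-135716629 (minus), Aurka at chr2:172370521-172370820 (minus) and Kif23 at chr9:61946750-61947049 (minus). Capitals mark TTTGAA (the CHR), its variant TTTAAA, and CCAAT, which reads ATTGG where it lies on the other strand.
Cenpf: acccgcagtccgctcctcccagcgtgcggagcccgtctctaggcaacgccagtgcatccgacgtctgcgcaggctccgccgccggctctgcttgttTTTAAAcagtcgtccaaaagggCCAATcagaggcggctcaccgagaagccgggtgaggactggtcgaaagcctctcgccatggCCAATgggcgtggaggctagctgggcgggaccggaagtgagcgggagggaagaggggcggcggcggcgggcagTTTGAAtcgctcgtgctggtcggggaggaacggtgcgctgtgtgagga
Mki67: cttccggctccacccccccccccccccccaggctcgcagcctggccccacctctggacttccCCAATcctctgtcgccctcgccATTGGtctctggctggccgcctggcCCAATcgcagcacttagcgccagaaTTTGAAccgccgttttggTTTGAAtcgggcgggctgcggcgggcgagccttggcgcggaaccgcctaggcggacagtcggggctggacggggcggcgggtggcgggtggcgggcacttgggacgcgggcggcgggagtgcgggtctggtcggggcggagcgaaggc
Aurka: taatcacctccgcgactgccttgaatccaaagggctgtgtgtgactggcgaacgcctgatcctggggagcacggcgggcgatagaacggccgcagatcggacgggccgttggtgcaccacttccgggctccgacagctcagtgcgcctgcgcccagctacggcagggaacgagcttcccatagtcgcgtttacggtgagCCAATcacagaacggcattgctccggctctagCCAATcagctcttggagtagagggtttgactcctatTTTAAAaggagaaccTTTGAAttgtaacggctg
Kif23: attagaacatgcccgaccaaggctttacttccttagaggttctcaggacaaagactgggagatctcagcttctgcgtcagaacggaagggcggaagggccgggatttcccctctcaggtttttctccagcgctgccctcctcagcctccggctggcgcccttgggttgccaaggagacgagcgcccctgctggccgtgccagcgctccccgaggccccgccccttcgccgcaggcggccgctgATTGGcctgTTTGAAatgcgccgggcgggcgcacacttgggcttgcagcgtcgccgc
The first base of the CHR lay 2 bases after the start in Cenpf and Kif23, 32 after it in Aurka, and at -116 and -98 in Mki67, each with at least 1 CCAAT or ATTGG upstream of it.

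Promoters were found for 43 of the 53 measured members, 22 of them G2/M genes and 20 S-phase genes. The reference table held 32851 promoter entries, so some genes had more than 1. Such a gene is counted below as 1 promoter, which holds a word if any of its entries does. TTTGAA on either strand was in 17 of the 22 G2/M promoters (77.3%) and 2 of the 20 S-phase promoters (10%), those of Mcm2 and Cdc45, against 20.2% of the promoters of all 27025 genes in the reference table. Counted over every promoter entry of the G2/M genes, there were 26 such words. Of these 19 lay within 50 bases of the start, with a median position 10 bases before it. A word shared by overlapping entries of a gene, as in Ect2 and Prc1, was counted more than once, so these are not counts of distinct words. Positions of the word over all promoters were not counted. CCAAT was in 18 of 22 G2/M promoters (81.8%) and 13 of 20 S-phase promoters (65%), against 41.1% of all. The E2F words (TTTCCCGC or TTTCGCGC or TTTGCCGC or TTTGGCGC) were in 8 S-phase promoters (40%) and 1 G2/M promoter, that of Cdk1, against 2.6% of all. TTCGGG, the word searched for Deaf-1, was in 4 G2/M and 2 S-phase promoters, 18.2% and 10%, against 7.98% of all. TTTAAA, a palindrome, was in 6 G2/M and 4 S-phase promoters, against 14.9% of all. A word in a promoter is a description of its letters and was not measured as a bound site.

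**Figure D4:**
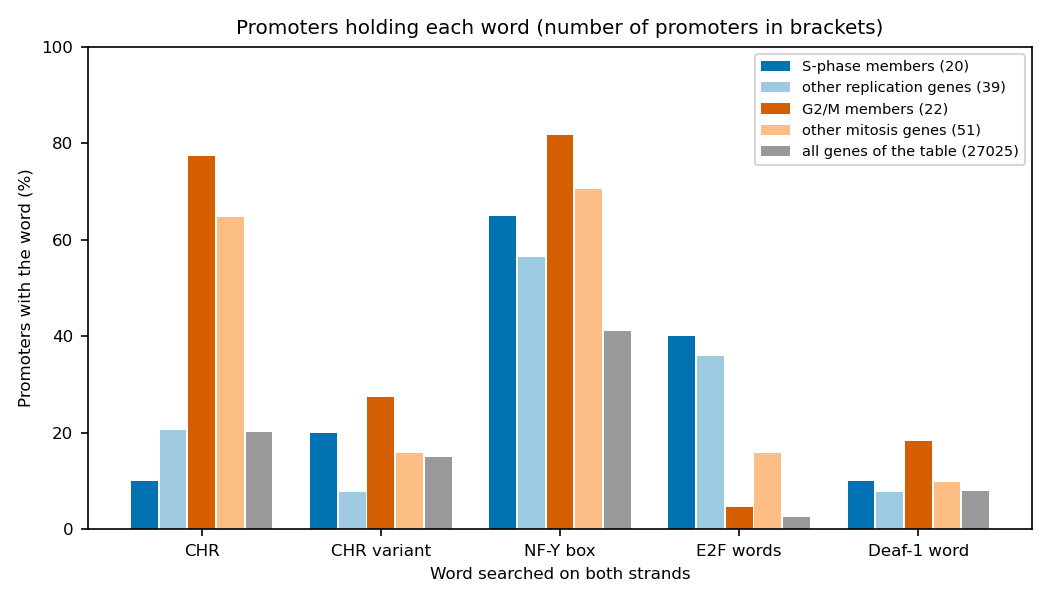
Percent of promoters (300 bases) that hold each word on either strand, for S-phase and G2/M members, the other replication and mitosis genes, and all genes of the reference table; numbers of promoters are in the legend, and the NF-Y box is CCAAT. The CHR bar is highest in the G2/M members (77.3%) and the E2F bar in the S-phase members (40%).

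Clone differences of members with and without a word are given as a description, with no test. The 17 G2/M genes with TTTGAA had a median difference of 0.63 and 8 calls, and the 5 without it 0.72 and 1 call, with ranges of -0.17 to 0.96 and 0.24 to 0.81. The 16 G2/M genes with both TTTGAA and CCAAT had a median of 0.65 and 8 calls, and the other 6 had 0.55 and 1 call, so the order of the medians depended on how the genes were divided. The 8 S-phase genes with an E2F word had a median of 0.09 and no call, and the 12 without one -0.04 and 2 calls.

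Among the S-phase genes, deoxynucleotide supply held the largest difference of any member. Rrm2, the small, cell-cycle-regulated subunit of ribonucleotide reductase, gave 8.59 and 8.61 in C1 and 9.95 and 9.92 in E1. The arrays of each clone lay 0.02 apart, and the difference was 1.33 ± 0.12, or 2.52-fold (adjusted p = 0.0071). The other probe sets of Rrm2 gave 1.62 and 1.49. Rrm1, the large subunit, had 0.49 ± 0.14 (adjusted p = 0.11), from 10.11 and 10.01 to 10.45 and 10.66. Tk1, thymidine kinase of the salvage pathway, had -0.04 ± 0.15, with 7.62 and 7.74 in C1 and 7.77 and 7.50 in E1, and its sign turned under cyclic loess normalization. Tyms, thymidylate synthase, was at background, with a mean of 3.72 in its brightest probe set, and its difference of -0.39 carries no level.

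Of the genes of S-phase entry, Ccne1, cyclin E1, was called higher in E1, with 7.21 on both C1 arrays and 7.91 on both E1 arrays, a difference of 0.70 ± 0.12 (adjusted p = 0.034). The arrays of a clone had an SD of 2.1e-06 in this probe set, and its standard error therefore came from the spread that limma shares over probe sets. A second probe set of Ccne1 gave 1.20 (adjusted p = 0.010). Ccne2, cyclin E2, gave 6.69 and 6.72 in C1 but 7.79 and 7.22 in E1, or 0.80 ± 0.20 (adjusted p = 0.092). E2f1, the activator E2F, had 0.49 (adjusted p = 0.084). Cdk2, the kinase partner of both cyclins E, gave 8.05 and 8.18 in C1 and 7.85 and 7.55 in E1, or -0.41 ± 0.15 (adjusted p = 0.21).

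No gene of the 12 for licensing and the helicase passed, with a median of -0.14. Mcm3, a subunit of the MCM helicase, had the largest difference, 8.53 and 8.53 in C1 against 9.10 and 9.14 in E1, or 0.59 ± 0.12 (adjusted p = 0.052), and 2 of its 3 other probe sets above background passed. Mcm6 had 0.48 and Mcm4 -0.51, although the MCM2-7 proteins form 1 hexamer; Mcm2, Mcm5 and Mcm7 lay between -0.14 and 0.06. Mcm10, which joins the activated helicase, had the smallest, -0.04 ± 0.12, with 6.04 and 6.08 in C1 and 5.998 and 6.05 in E1. Cdt1, the licensing factor that loads MCM, had -0.55 ± 0.13 (adjusted p = 0.073), from 10.09 and 9.96 to 9.52 and 9.44. Cdc45 and Gins1, of the active CMG helicase, had -0.45 and -0.29, Gins2 -0.17 and Cdc6, the other loading factor, 0.12.

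Fork and polymerase genes were divided as well. Rfc4, a subunit of the clamp loader, had the lowest value of any member, with 7.69 and 7.98 in C1 and 7.29 and 6.70 in E1, or -0.84 ± 0.23 (adjusted p = 0.11). Both E1 arrays were below both C1 arrays, and the E1 arrays stood 0.59 apart. Pcna, the sliding clamp, had 11.46 and 11.72 in C1 and 11.65 and 11.61 in E1, or 0.04 ± 0.14, and was among the brightest probe sets of the list. Pola1, the catalytic subunit of polymerase alpha, had 0.48, and Prim1, the primase subunit of the same complex, -0.38 (adjusted p 0.10 and 0.17). Lin52, of the MuvB core, had 0.13 ± 0.27 between the clones.

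The calls among the S-phase genes depended on the probe sets admitted and on other settings. With the 2 clones compared only over probe sets with a mean of at least 6, 8 S-phase genes passed as higher in E1 and 5 as lower, namely Cdc45, Cdt1, Mcm4, Prim1 and Rfc4, while 20 G2/M genes passed as higher and none as lower. Calls were more frequent over the whole array at this setting, with 14.6% of 7361 genes higher and 17.2% lower. An intensity trend in the prior, with all probe sets kept, gave 8 S-phase genes higher and 4 lower. Over genes above background it called 8.47% higher and 9.48% lower.

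Promoters of 3 S-phase genes are shown beside those of the mitosis genes: both called ones, Rrm2 at chr12:24708004-24708303 (plus strand) and Ccne1 at chr7:38107441-38107740 (minus), and Cdt1 at chr8:122567765-122568064 (plus), which holds an E2F word. Cdt1 was taken for the lowest limma t between the clones among S-phase genes with an E2F word. Build, length and source are as above, and capitals mark TTTAAA as well as CCAAT and the E2F word TTTGGCGC.
Rrm2: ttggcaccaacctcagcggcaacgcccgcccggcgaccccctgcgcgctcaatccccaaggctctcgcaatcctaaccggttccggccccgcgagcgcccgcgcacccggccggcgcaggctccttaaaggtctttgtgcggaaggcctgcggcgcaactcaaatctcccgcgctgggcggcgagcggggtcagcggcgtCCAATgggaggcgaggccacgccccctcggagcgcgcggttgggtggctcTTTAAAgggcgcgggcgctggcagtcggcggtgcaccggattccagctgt
Ccne1: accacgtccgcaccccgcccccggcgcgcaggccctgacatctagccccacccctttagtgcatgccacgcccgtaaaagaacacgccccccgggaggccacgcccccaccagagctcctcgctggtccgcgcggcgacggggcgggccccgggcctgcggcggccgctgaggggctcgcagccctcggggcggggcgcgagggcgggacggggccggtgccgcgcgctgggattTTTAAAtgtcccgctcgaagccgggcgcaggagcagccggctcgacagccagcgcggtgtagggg
Cdt1: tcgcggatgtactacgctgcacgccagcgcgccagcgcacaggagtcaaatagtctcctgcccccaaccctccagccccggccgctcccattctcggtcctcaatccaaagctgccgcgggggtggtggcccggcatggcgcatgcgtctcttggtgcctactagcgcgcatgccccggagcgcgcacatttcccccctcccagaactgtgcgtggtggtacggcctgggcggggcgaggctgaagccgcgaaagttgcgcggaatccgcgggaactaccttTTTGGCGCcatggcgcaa
None of the 3 holds TTTGAA. The variant TTTAAA began at the start itself in Rrm2 and 15 bases before it in Ccne1, and the E2F word 32 bases after it in Cdt1.

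Other genes of the same processes were counted in the same way. Of 61 other mitosis genes 54 had a higher mean in E1, 12 were called higher and none lower, and the median was 0.44. Psrc1, a spindle microtubule protein, and Aspm, which focuses spindle poles, had the highest t: Psrc1 gave 6.41 and 6.76 in C1 and 8.90 and 8.79 in E1 (2.26, adjusted p = 0.0038), and Aspm 6.47 and 6.42 in C1 and 8.03 and 7.80 in E1 (1.47, adjusted p = 0.0080). Zwint and Spc24, both of the outer kinetochore, had the lowest t, at -0.58 (adjusted p = 0.073) and -0.34. Of 46 other replication genes 18 had a higher mean in E1, 2 were called higher and 1 lower, and the median was -0.05. Over genes above background 5.10% were called higher and 4.95% lower, so calls among these replication genes were no more frequent than over all genes. Dbf4, the activator of the CDC7 kinase, and Prim2, the large primase subunit, were both higher by 0.62 (adjusted p 0.046 and 0.047). Timeless, of the fork protection complex, was lower in E1 by 1.19 (adjusted p = 0.0095), and Chek1, the S-phase checkpoint kinase, had -0.60 (adjusted p = 0.075). TTTGAA was in 64.7% of the promoters of the other mitosis genes and 20.5% of those of the other replication genes.

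Of 18 genes of the RB, E2F, DREAM and MYB-MuvB proteins, 9 had a higher mean in E1 and 1 was called, Mybl2, which encodes B-MYB. That share was near the 5.10% of genes above background called higher. Mybl2 gave 5.05 and 5.01 in C1 and 5.76 and 5.79 in E1, a difference of 0.74 (adjusted p = 0.029). E2f8, an atypical repressor E2F, had 0.80 (adjusted p = 0.074), and Tfdp2, an E2F partner, and Rbl2, the p130 pocket protein of DREAM, had -0.54 and -0.42. Of the 3 inhibitors of the CIP/KIP family 2 were higher in E1, with larger differences than the brightest probe set of any member. Cdkn1c, p57, gave 6.43 and 6.78 in C1 and 9.74 and 9.64 in E1 (3.08, adjusted p = 0.0020). Cdkn1a, p21, a target of p53, gave 9.25 and 9.01 in C1 and 10.69 and 10.70 in E1 (1.56, adjusted p = 0.0070). Cdkn1b, p27, had -0.26 (adjusted p = 0.45). With retrovirus as a block Cdkn1c alone of the genes named from these other lists stayed called (adjusted p = 0.044), and none of the other mitosis, replication and RB, E2F and DREAM genes did. The transcripts of the inhibitors p21 and p57 and those of G2/M genes were thus higher in the same clone.

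The comparison for which the arrays were made, Deaf-1 against empty virus, called no member. Without the block 0.0111% of probe sets passed an unadjusted p under 0.01. Among the 53 members 1, Lin52, had a p under 0.05, beside 74 of all 18193 genes. The median change was -0.0019 over the S-phase genes and -0.03 over the G2/M genes, beside -0.02 over genes above background. Within C1 the medians were 0.04 and -0.04, and within E1 -0.05 and -0.03. Over genes above background the median was 0.03 in C1 and -0.07 in E1. Changes of single G2/M genes, as means of both clones, ran from -0.14 to 0.11 and those of S-phase genes from -0.27 to 0.24. The Deaf-1 change had opposite signs in the clones for 32 of 53 members (60.4%), and for 62.2% of all genes.

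**Figure D5:**
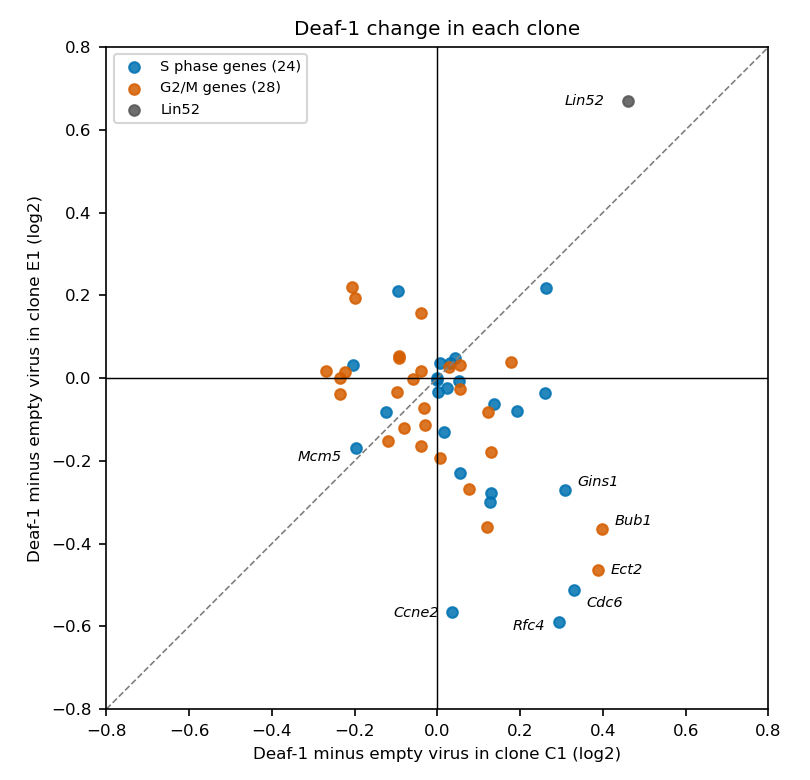
Log2 change with the Deaf-1 virus against the empty virus in clone C1 (x axis) and clone E1 (y axis) for each S-phase gene (blue), G2/M gene (orange) and Lin52 (grey); the dashed line marks equal changes. Lin52 stands alone at the upper right (0.46 and 0.67), and Cdc6, Gins1, Rfc4, Bub1 and Ect2 lie at the lower right.

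Lin52, the small MuvB subunit whose phosphorylation drives assembly of DREAM, was the member with the largest t. Its brightest probe set gave 3.72 and 3.74 with the empty virus in C1 and E1 and 4.18 and 4.41 with the Deaf-1 virus. Both Deaf-1 arrays were above both controls, by 0.56 ± 0.16 (SE; unadjusted p = 0.020, adjusted p = 1), but the control arrays lay below the background level of 3.83. The second probe set of Lin52 gave 3.88 and 4.01 with the empty virus and 3.98 and 4.15 with the Deaf-1 virus, and its ranges overlapped. The next members by t were Mcm5, Tyms and Pcna. Mcm5, an MCM subunit, gave 9.97 and 9.81 with the empty virus and 9.77 and 9.64 with the Deaf-1 virus, -0.18 ± 0.16 (unadjusted p = 0.30). Tyms, at background, had 0.24 ± 0.23 and Pcna 0.11 ± 0.16. Mki67 had -0.07 ± 0.47, since the fit without clone took the difference between the clones as spread, and -0.10 and -0.03 within the clones.

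A few members changed in opposite directions in the clones, with 1 array on each side and no test. The S-phase genes Cdc6, Gins1 and Rfc4 had 0.33, 0.31 and 0.29 in C1 and -0.51, -0.27 and -0.59 in E1. The G2/M genes Bub1 and Ect2 had 0.40 and 0.39 in C1 and -0.37 and -0.46 in E1. Of the 24 S-phase genes 14 were higher with Deaf-1 in C1 and lower in E1, as were 8 of 28 G2/M genes and 4751 of 11730 genes above background.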

How the data were processed

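Deposited values were log2 signals per probe set and array, made by the authors with RMA; RMA and limma are named in the submitters' processing notes, with versions not given in the sources used here. Of 45101 probe sets 64 controls were left out. The members and lists were chosen with earlier results of these data known. Differences between clones and between retroviruses were fitted with limma 3.58.1 (R 4.3.3; lmFit, eBayes, two-sided, no trend) over 45037 probe sets with Benjamini-Hochberg adjustment. Clone differences were called at an adjusted p under 0.05 and Deaf-1 changes at an unadjusted p under 0.01, the study's threshold. The study gave a smaller p for the same Deaf1 change, so its fit differed from this one. Its list of genes at that threshold is therefore not comparable with the calls here. The fit was tested on simulated data in which the 4 arrays varied independently, so arrays that vary together within a clone were not covered. With 4 arrays, p-values measure only the spread between these arrays, and 2 arrays per side limit the precision. Arrays of a clone are paired by origin: their deviations from the retrovirus means correlated at 0.54 over probe sets. The fit with clone as a block called no member either. Named in full were the members with the largest and smallest clone difference in each role, the 4 with the largest t for Deaf-1, Mki67, Pcna, Lin52 and Deaf1; from other lists the 2 highest and 2 lowest t and the CIP/KIP genes. Alternatives were the other factor as a block, each array left out, filters at background and at a mean of 6, 3 normalizations, 2 priors, and other choices of probe sets. Promoters came from RefSeq (GRCm38.p6).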

Additional observations from a re-analysis of the deposited data

Results flagged for a closer look

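The Deaf-1 change pointed in opposite directions in the clones for the median of the S-phase genes and for 5 members in which both changes reached 0.25 on the log2 scale, a size chosen after the values were seen. The median over genes above background turned in the same way, at 0.029 in C1 and -0.066 in E1. How many of all genes reached that size in both clones was not counted. The difference, the change in E1 minus that in C1, was -0.089 for the S-phase median. It was -0.84 for Cdc6, -0.58 for Gins1, -0.88 for Rfc4, -0.76 for Bub1 and -0.85 for Ect2. Each rests on 1 array per clone and retrovirus, and the difference was not tested.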

How the results depend on the processing

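Clone calls depended on the spread used. With retrovirus as a replicate block 0 G2/M and 0 S-phase genes were called, and likewise 0 and 0 without any 1 array, where 1 residual degree of freedom was left and no probe set of the array passed. At a mean of at least 6, 20 G2/M and 8 S-phase genes passed as higher and 5 members as lower, with 3894 probe sets called on the array against 2306 as reported. An intensity trend gave 18, 8 and 4 (3909 probe sets), the background filter 15 and 3 higher and 1 lower, Cdt1 (3187), further quantile normalization 14 and 4 higher (3093) and cyclic loess 16 and 4 (2983). G2/M calls were 13 with median centring (2388), 11 with a robust prior (2147) and without _x_at and _s_at probe sets (1945), and 10 with the mean of all probe sets. The cause was not tested.

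The G2/M median between clones was 0.63 with median centring, 0.69 with cyclic loess, 0.67 without _x_at and _s_at probe sets, 0.39 with the mean of all probe sets, and 0.59 to 0.67 without 1 array; its gap to the S-phase median was 0.44 with the mean of all probe sets. The S-phase median was -0.14 to -0.0064 without 1 array. Small differences changed sign: Mcm10 at 0.018 (quantile), 0.020 (loess) and 0.15 (mean of all probe sets), Tk1 at 0.0027 (loess), Ttk at -0.0078 and Anln at -0.16 (mean of all probe sets). The further probe sets of Mcm10 and Ttk that entered this mean lay below background. Without 1 array Pcna ranged from -0.090 to 0.17, Tk1 from -0.18 to 0.094 and Lin52 from -0.21 to 0.46.

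For Deaf-1, no setting called a member. The G2/M median was -0.013 with quantile normalization, -0.055 with median centring, -0.0050 with cyclic loess, -0.041 with the mean of all probe sets and -0.027 without Mki67, Top2a, E2f1 and Cdk2. Leaving out 1 array sets the clones against each other, and the median then ranged from -0.37 to 0.26, its gap to the S-phase median from -0.37 to 0.31 and Mki67 from -0.56 to 0.43. Deaf1 was 1.58 and 1.48 without the C1 and the E1 control array and missed the threshold in both. Of the other comparisons of summaries with an alternative 89 kept a median within the spread or a count within 1.5 times that reported, and of those of named genes 265 kept direction and side of the threshold.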
